A study of Mus musculus with 10 samples.

Results

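The Hox gene clusters of mouse macrophages are described here through the chromatin loops called around them. Members were chosen by name from the GENCODE M21 annotation of build GRCm38, as protein-coding genes called Hoxa, Hoxb, Hoxc or Hoxd with a number, which gave 39 of 21728 genes: 11 in Hoxa, 10 in Hoxb, 9 in Hoxc and 9 in Hoxd. A loop was counted when an anchor, a bin of 10 kb, overlapped 100 kb either side of the transcription start site (TSS) of a member. This gave 103 of the 53424 loops of untreated cells (M0[CTR]), 94 of 58260 with IL-4 present (M2[IL-4]) and 123 of 67728 after its washout (M2p[pIL-4]). With interferon gamma it gave 125 of 55012 in unprimed cells (IFNG) and 129 of 67000 in primed cells (pIL-4 + IFNG).

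The loops come from Hi-C, an assay that ligates and reads stretches of DNA found near each other in the nucleus, carried out in bone marrow-derived macrophages of wild-type female C57BL/6 mice aged 2 to 3 months. Marrow cells of every group were grown with M-CSF at 20 ng/ml and treated on day 6. M0[CTR] was left untreated, M2[IL-4] received IL-4 at 20 ng/ml for 24 h, and M2p[pIL-4] was then washed free of cytokine and rested for 24 h. IFNG received interferon gamma at 20 ng/ml for 3 h, and pIL-4 + IFNG received it after IL-4, washing and rest. Each group had 2 replicates and 1 deposited list of loops. Differences therefore have no replicate check, and intervals cover counting error only. Where 5 values follow each other below, their order is untreated, IL-4 present, IL-4 washed out, IFNG unprimed and IFNG primed. A list holds no expression, so neither the macrophage markers nor the RNA of the Hox genes could be examined in it, and an uncalled bin pair has no value.

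Hox genes encode homeodomain transcription factors that give cells their position along the body axis, and they lie in the chromosome in the order in which they are used, low numbers toward the head and high numbers toward the tail. Cells that do not use a Hox gene keep it silent under Polycomb proteins, while Trithorax proteins such as Kmt2a keep used genes active. In blood formation, Hoxa7, Hoxa9 and Hoxa10 are known from stem and progenitor cells. Large regulatory domains flank the clusters, and the CTCF protein, bound to DNA in one orientation or the other, is a common boundary and loop anchor inside and beside them.

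In GRCm38, the Hoxa cluster lies on the minus strand of chromosome 6 and ends at 52260880 beyond Hoxa13. Hoxb lies at chr11:96194316-96368256, Hoxc at chr15:102921103-103036852 and Hoxd at chr2:74668310-74765142, these 3 on the plus strand. The stretches of the 4 clusters, from the first to the last base of the member genes, are called the cluster bodies and cover 12, 18, 12 and 11 bins. The side toward the low gene numbers is called the low-numbered side, and the side beyond a gene numbered 13 the high-numbered side. Some gene records include long read-through transcripts: the TSS of Hoxa3 is placed between Hoxa6 and Hoxa7, that of Hoxc5 beside Hoxc10, and those of Hoxd3 and Hoxd4 fall in the same bin.

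The sequences below are the CTCF core matches in those bins of the Hoxa, Hoxb and Hoxc bodies and their partners that had at least 6 loops over the 5 lists, shown because loops described later end in several of these bins. The motif of 12 letters starts with CCANNAG, where N stands for any letter, and ends with GGC. Between these parts stand the pairs GG, AG, AT or GT, which gives 4 forms that cannot match the same letters. Both strands were searched, outside annotated repeats. Each sequence is read 5′ to 3′ on the stated strand of GRCm38, with the match in capitals.
Hoxa3 intron, chr6:52211282-52211293, minus strand: gcagctCCAGGAGAGGGCtggtaa
Hoxa7 5′ untranslated exon, chr6:52221809-52221820, minus strand: aaaattCCAGGAGATGGCagtgtg
Hoxa10 untranslated exon, chr6:52240541-52240552, minus strand: cagccgCCACGAGATGGCgcactc
Hoxa11 untranslated exon, chr6:52242833-52242844, minus strand: agttaaCCAAAAGGTGGCtgtgaa
Snx10 intron, chr6:51580506-51580517, minus strand: tgccagCCACAAGATGGCgctcta
Hibadh intron, chr6:52601309-52601320, minus strand: tctgtgCCACCAGGGGGCattgca
Jazf1 intron, chr6:52843227-52843238, plus strand: ctgcatCCAGCAGATGGCagccca
Upstream of Hoxb9, intergenic, chr11:96265875-96265886, minus strand: cctgtcCCACTAGGGGGCcctaga
Skap1 intron, chr11:96553346-96553357, minus strand: attttaCCACAAGAGGGCgctaga
Hoxc10 and Hoxc5 intron, chr15:102969144-102969155, plus strand: ctttgaCCAGAAGATGGCcgtggc
Beside Smug1, intergenic, chr15:103172708-103172719, minus strand: gagcagCCACAAGGGGGCtctggg
Beside Smug1, intergenic, chr15:103178364-103178375, minus strand: acactgCCAGCAGAGGGCaacacg
Beyond these, intergenic, chr15:103184111-103184122, minus strand: agatgcCCAGAAGGTGGCgcgagc

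Of 255946 bins in the genome, 8.47% held such a match. Among Hox bins it was 7 of 53 body bins (13.2%) and 13 of 88 bins that were loop partners of a body (14.8%). Body bins differ from the genome in composition. Their median G+C was 50.8% in Hoxa, 49.1% in Hoxb, 49.5% in Hoxc and 48.9% in Hoxd, against 41.2%. Their median repeat share was 13.0%, 19.4%, 15.1% and 13.8%, against 29.2%. Whether the shares of matches follow composition was not tested. The Hoxa body held matches in 3 of its 12 bins, and all 4 matches there were on the minus strand. The match in Hoxa7 lies 45 bases downstream of its TSS, and that in Hoxa10 lies 313 bases downstream. The Hibadh bins with the most Hoxa loops, 11 at 52570001 and 15 at 52580001, held no match. A match is a description of letters and not a measured binding site. MboI, the enzyme of the assay, cuts at GATC, and body bins held a median of 21 such sites in Hoxa, 24.5 in Hoxb, 23 in Hoxc and 21 in Hoxd, against 24 over the genome.

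The clusters differed widely in how many loops were called around them. Hoxa had 67 loops in untreated cells, 57 with IL-4, 83 after its washout, 80 with IFNG and 84 with IFNG after priming. Hoxb had 12, 10, 16, 20 and 23 loops. Hoxc had 24, 26, 23, 21 and 20. Hoxd had 0, 1, 1, 4 and 2. By called bin pairs, Hoxa was therefore the richest cluster and Hoxd the poorest in every list. A count of 0 in M0[CTR] allows up to 3 Hoxd loops.

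Within a cluster, the exact Poisson intervals of the 5 counts overlapped for every pair of lists. In Hoxb, they overlapped between 10 loops in M2[IL-4] (95% interval 4.80 to 18.4) and 23 in pIL-4 + IFNG (14.6 to 34.5). Lists also differed in length. Lists of equal length were made by keeping, up to the length of the shortest list, M0[CTR], the loops with most contacts for their span. Weaker loops of the longer lists were thus left out by this rule. The Hoxb counts in M2[IL-4] and pIL-4 + IFNG were then 9 and 13, while Hoxd had 2 loops in IFNG and 0 in every other list. Per 1000 loops of the list, all clusters together had 1.93, 1.61, 1.82, 2.27 and 1.93 loops. Many called bin pairs touch each other. When touching pairs were merged into 1 loop, the totals became 33, 34, 36, 37 and 43. Hoxa then had 26, 21, 25, 25 and 28 loops, Hoxb 4, 6, 8, 6 and 12, Hoxc 3, 6, 2, 2 and 1, and Hoxd 0, 1, 1, 4 and 2. Hoxa was still the richest in every list, but Hoxd had more than Hoxc in IFNG and in pIL-4 + IFNG.

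**Figure D1:**
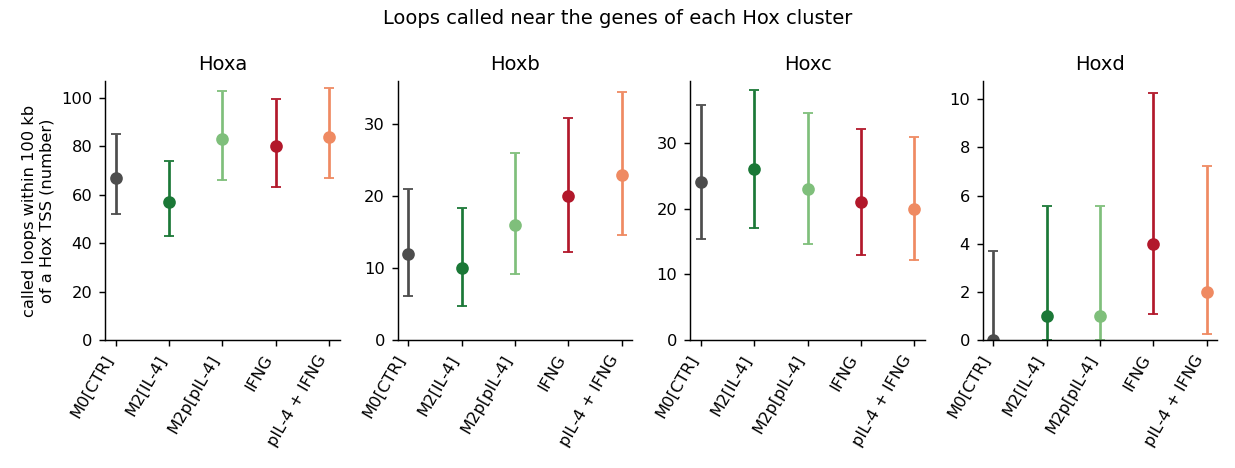
Number of loops called within 100 kb of a Hox TSS (vertical axis, one scale per cluster) in each of the 5 lists. Points are counts and bars 95% exact Poisson intervals; Hoxa runs from 57 to 84 loops and Hoxd from 0 to 4.

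Per gene, the number of loops followed the cluster, since the windows of neighbouring genes overlap and hold many of the same loops. Hoxa10 had 67, 56, 83, 80 and 81 loops, which was more than 94.1% to 98.1% of all genes had. Hoxa2, toward the low-numbered side, had fewer, with 34, 32, 44, 38 and 45. Hoxb5 had 12, 9, 14, 20 and 21 loops, Hoxc8 had 24, 26, 23, 21 and 20, and Hoxd13 had 0, 1, 1, 4 and 2. The median over all protein-coding genes was 6 to 8 loops per gene, and 24.0% to 26.9% of genes had none. Hoxd genes thus lay below that median in each list, whereas Hoxa, Hoxb and Hoxc genes lay above it in every list except Hoxb13 in M2[IL-4], whose 7 loops equalled it.

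A TSS bin with a loop of its own was found for 22, 23, 21, 26 and 23 of the 39 genes, or 53.8% to 66.7%, against 34.8% to 39.7% of all genes. Neighbouring Hox genes can share a bin, so these are not independent. Hoxa7 had the most over the 5 lists together, with 9, 7, 7, 11 and 14 loops in its TSS bin, although Hoxa13 had more in M2p[pIL-4], with 9. Those of Hoxb1, Hoxb2, Hoxb13, Hoxc12, Hoxc13, Hoxd1, Hoxd9 and Hoxd10 had none in any list. These genes therefore lay at both ends of Hoxb, at the high-numbered end of Hoxc and at the low-numbered end of Hoxd, with Hoxd9 and Hoxd10 as the inner exceptions.

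The Hoxa cluster was split by the direction of its loops. Over the 7 bins from Hoxa2 to Hoxa7, 16, 16, 16, 20 and 20 loops reached out on the low-numbered side and none reached out on the high-numbered side in any list. Over the 3 bins from Hoxa10 to Hoxa13, 14, 12, 20, 9 and 21 loops reached the high-numbered side, and 2, 1, 4, 3 and 2 the low-numbered side. The bin with the TSS of Hoxa9, between these stretches, had 11 loops to the low-numbered and 2 to the high-numbered side over all lists. In each list, loops to the high-numbered side thus began within the bins from 52230001 to 52250000 on chromosome 6.

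The bin from 52220001 to 52230000, which holds the TSS and 5′ end of Hoxa7 and part of Hoxa9, had 48 loops over the 5 lists, the most of any Hox body bin, all to the low-numbered side. It holds the CTCF match shown above for Hoxa7. At the other end, the bin with the TSS of Hoxa13 had 33 loops to the high-numbered side and 1 to the low-numbered side, and the bin before it 32 and 5.

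**Figure D2:**
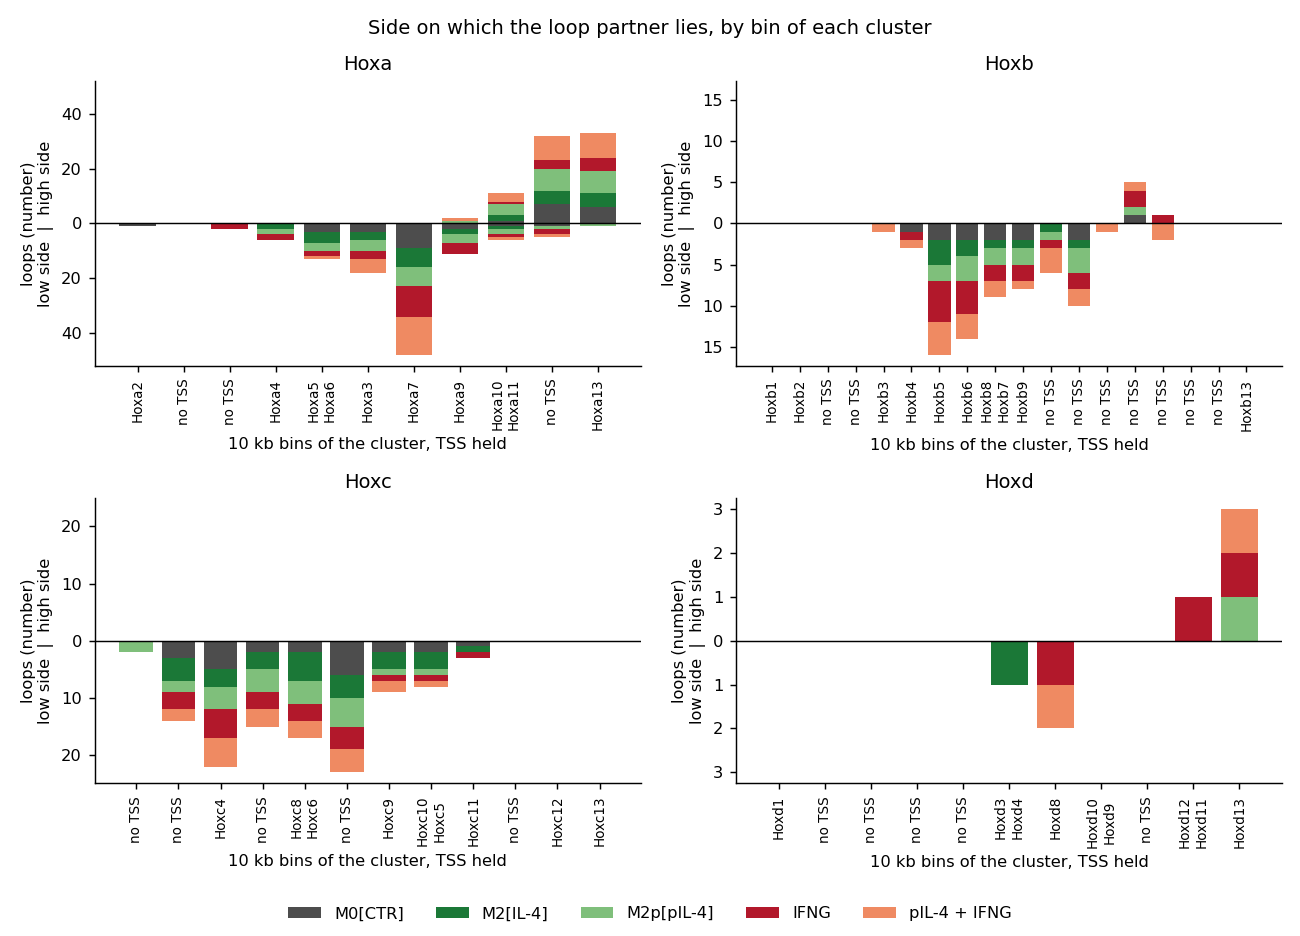
Loops of the 10 kb bins of the cluster bodies, in Hoxa from Hoxa2 on, with bins in order from the low-numbered to the high-numbered end and labelled by the TSS they hold. Bars upward count loops whose partner lies on the high-numbered side and bars downward those on the low-numbered side, stacked over the 5 lists; Hoxa changes side after Hoxa9, with 48 loops to the low side at Hoxa7 and 33 to the high side at Hoxa13, and all Hoxc loops go to the low side.

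Outside the Hoxa body, the loops ended at a few places. Of 189 loop ends over the lists, 42 lay in Hibadh, a gene of valine breakdown, and 32 in Jazf1, which encodes a zinc finger protein, both on the high-numbered side. On the low-numbered side, 27 lay in Skap2, which encodes a Src kinase-associated adaptor, 11 in Snx10, a sorting nexin gene, and 2 in Cbx3. A further 72 ends lay over no protein-coding gene. Most of these fell between 51170001 and 51230000, about 1 Mb from the cluster, where the nearest protein-coding genes to the outermost bin were Nfe2l3 at 253 kb and Npvf at 516 kb. That outermost bin had 3, 2, 3, 5 and 4 loops with the Hoxa body. Ends in Hibadh, Jazf1 and Snx10 lay within the gene and at none of their TSS bins, while 4 of the 27 ends in Skap2 fell in its TSS bin.

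Other loops of the Hoxa window had no anchor in the body. There were 33, 26, 39, 42 and 39 of these, and 33, 25, 39, 41 and 39 ran entirely on the high-numbered side, from the region beside Hoxa13 that holds the homeobox gene Evx1. Hibadh took 23, 19, 25, 32 and 28 of them. The anchor nearer the cluster lay over Evx1 itself in only 2, 0, 3, 3 and 4 of them. Only 1 loop, in IFNG, crossed the whole Hoxa body. The direction of the loops of Hoxa13 thus continued past the cluster.

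Loops inside a cluster were nearly absent from the lists. Only bins at the Hoxa10 to Hoxa13 end were joined: the bin of Hoxa10 and Hoxa11 with the first Hoxa13 bin with IFNG (133 contacts) and with IFNG after priming (138 contacts), and with the second Hoxa13 bin in IFNG (76 contacts). Loops of 110 kb or less, which would fit inside the Hoxa body, made up 34.0% to 36.8% of each list.

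Hoxb loops ran almost entirely to a single gene. Of 76 loop ends over the lists, 65 (85.5%) lay in Skap1, the paralog of Skap2 and an adaptor of T cell signalling, with 11, 8, 13, 15 and 18 per list. These ends were at introns and exons but none at the Skap1 TSS bin. The Hoxb ends were at the genes from Hoxb9 to Hoxb3 and in the stretch upstream of Hoxb9, where the bins from 96250001 to 96270000 had 16 loops in all. Over the 5 lists together, the bin with the TSS of Hoxb5 had most, with 2, 3, 2, 5 and 4 loops. A few loops went the other way: 6 ends lay in Ttll6, a tubulin glutamylase gene beyond Hoxb13, and all had their other end in the gene-poor stretch between Hoxb9 and Hoxb13.

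Hoxc loops all had their partner on the low-numbered side, beyond Hoxc4, in every list: 23, 26, 23, 21 and 20 loops. They converged on a hub beside Smug1, which encodes a uracil-DNA glycosylase. Of 113 ends, 36 lay in the intergenic bin from 103170001 to 103180000, which holds both CTCF matches shown above as beside Smug1, and 27 in the neighbouring bin with the Smug1 TSS. Another 17 lay in the next bin outward, up to 103190000, and 2 in Cbx5, which encodes a heterochromatin protein. The Hoxc ends spread from Hoxc11 to Hoxc4, most at the bin of Hoxc9 and Hoxc5 from 102980001 to 102990000 (23 loops) and the bin of Hoxc4, Hoxc5 and Hoxc6 from 103010001 to 103020000 (22 loops).

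Spans differed with these partners. The median span was 330 to 340 kb for Hoxa loops, 250 to 270 kb for Hoxb and 160 to 170 kb for Hoxc, against 160 to 180 kb over the whole lists. Contacts fall with span, and the median was 17 to 20 contacts per Hoxa loop against 32 in each whole list. Relative to the median of loops of the same span in the same list, a ratio called strength here, the median Hoxa loop stood at 0.96 to 1.05, Hoxb at 0.88 to 1.08 and Hoxc at 0.91 to 1.00, so typical loops of these 3 clusters were about as strong as other loops of their length. The few Hoxd loops were weaker, with medians of 0.68 to 0.78 in the 4 lists that had any. Where all 5 lists held the bin pair, median strength was 1.04 to 1.17 over 27 Hox bin pairs, against 1.21 to 1.26 over all such bin pairs.

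**Figure D3:**
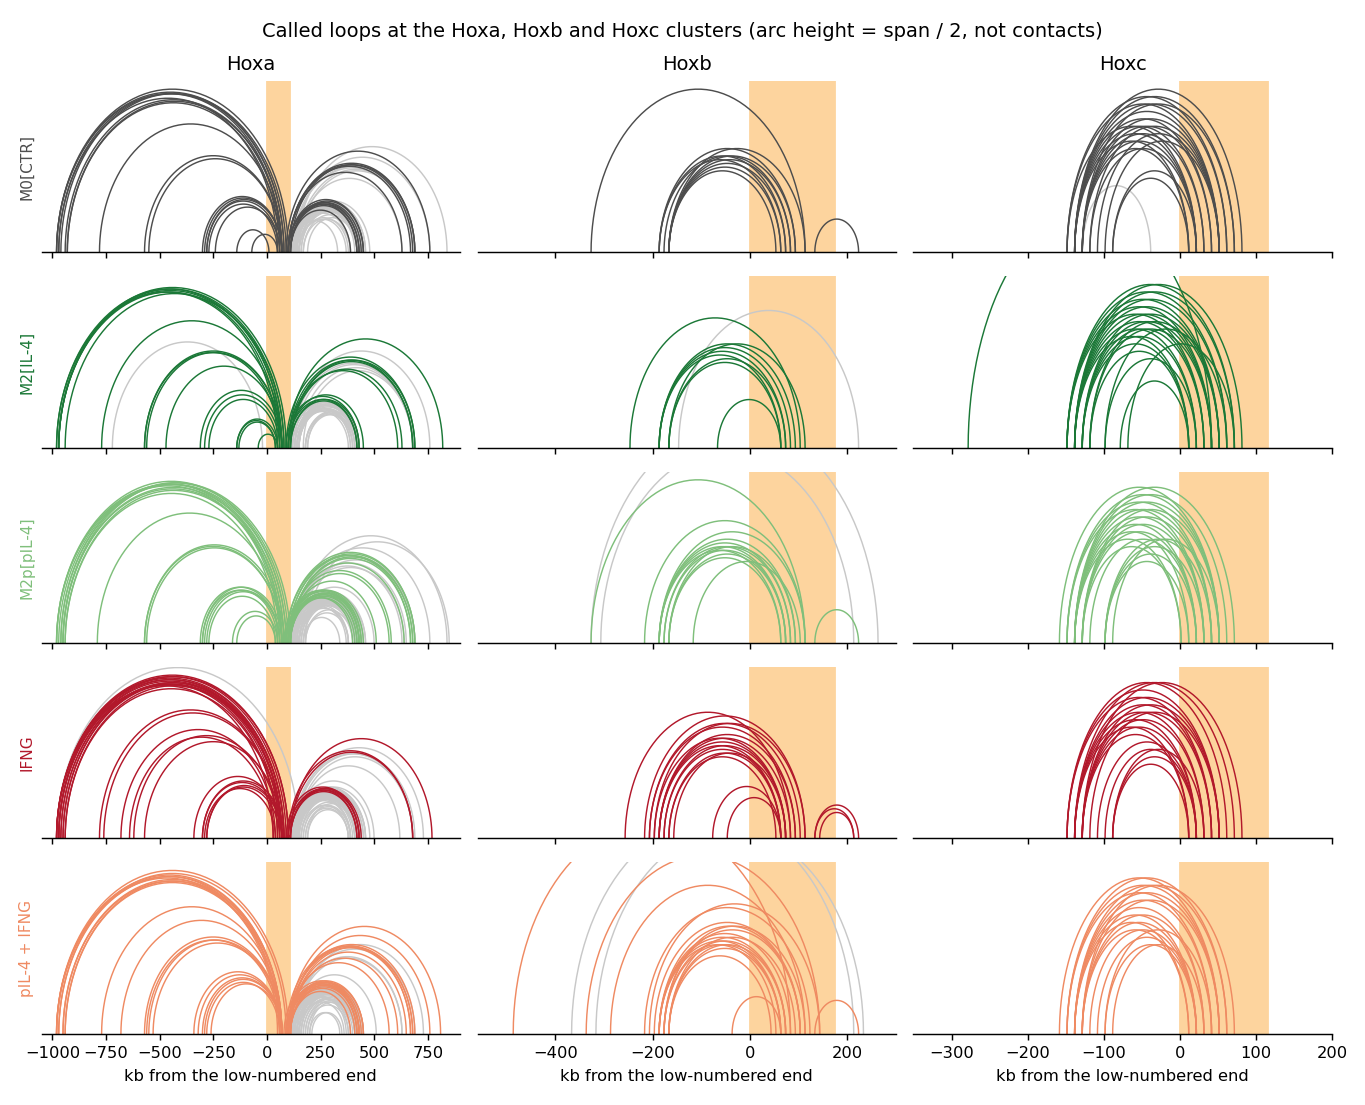
Called loops of the Hoxa, Hoxb and Hoxc windows in each list, drawn as arcs between anchor centres in kb from the low-numbered end of the cluster body (shaded), with positive values into the body. Coloured arcs have an anchor in the body and grey arcs do not; arc height stands for span and not for contacts. Hoxa arcs leave on both sides, Hoxc arcs on the low-numbered side only, and Hoxb arcs mostly so.

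Hoxd was the exception, with 8 loops in all lists together and 7 of them from its body. In M2[IL-4], the bin of Hoxd3 and Hoxd4 joined an intergenic bin at 74960001 with 17 contacts. In IFNG, the bin of Hoxd8 and Hoxd9 joined the same intergenic bin with 16 contacts. Hoxd13 joined an intergenic bin at 74300001 with 14 contacts after IL-4 washout and 14 after priming and IFNG, and in IFNG the neighbouring bin with the TSS of Hoxd12 and Hoxd11 joined it with 12 contacts. The remaining loops were Hoxd13 to 73960001 (13 contacts, IFNG), the Hoxd8 bin to 75050001 (13 contacts, pIL-4 + IFNG) and a loop beside the body (13 contacts, IFNG). As in Hoxa, the Hoxd13 end reached the high-numbered side and Hoxd3 to Hoxd9 the low-numbered side, here on 7 loops.

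The strongest loops called in all 5 lists give the most complete series of values. From Hoxa7 and Hoxa9, the loop to the intergenic bin 1050 kb away had 12 contacts in untreated cells, 13 with IL-4, 11 after its washout, 20 with IFNG and 13 with IFNG after priming. From Hoxa13, the loop to the Hibadh intron, 320 kb away, had 24, 26, 27, 34 and 27 contacts. The Hoxa13 loop to the Jazf1 intron, over 580 kb, had 18, 19, 16, 18 and 13. IFNG was the highest list for the first and second of these, but the intervals of all 5 lists overlapped in each.

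At Hoxb, the bin of Hoxb5 and Hoxb6 had 41, 39, 33, 34 and 37 contacts with the Skap1 bin 230 kb away. With the Skap1 bin at 250 kb, which holds the CTCF match shown above, it had 26, 36, 32, 37 and 30. The neighbouring bin of Hoxb6 and Hoxb7 had 22, 24, 23, 25 and 28 contacts with that Skap1 bin. No list stood apart, and all intervals overlapped.

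At Hoxc, the bin of Hoxc4 had 37 contacts with the intergenic hub bin in untreated cells (95% Poisson interval 26.1 to 51.0), 67 with IL-4 (51.9 to 85.1), 51 after its washout (38.0 to 67.1), 41 with IFNG and 41 with IFNG after priming. With the Smug1 bin beside the hub it had 40, 55, 46, 50 and 46. The bin of Hoxc9 had 55, 44, 43, 35 and 36 contacts with the hub bin. The interval of M2[IL-4] lay above that of M0[CTR] for the first of these loops, and it was the only pair of lists with separate intervals among the 9 loops. The share of loops over the genome with such a pair was not computed, so this pair has no background to be set against. In the Hoxc9 loop the order ran the other way, with M0[CTR] highest and overlapping intervals.

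**Figure D4:**
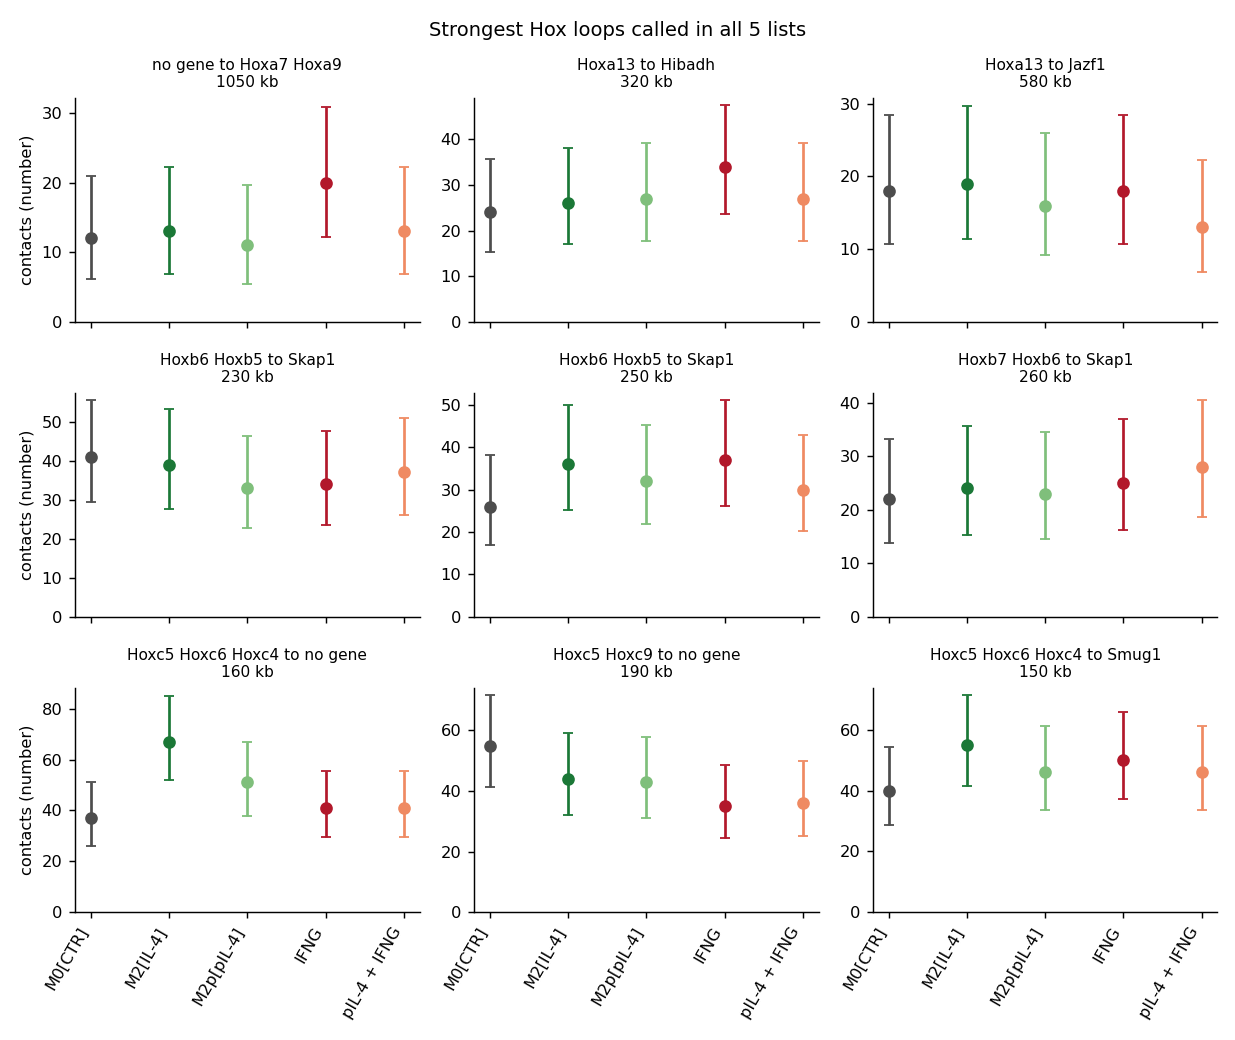
Contacts in each list at the 3 strongest loops per cluster that were called in all 5 lists, at Hoxa, Hoxb and Hoxc. Points are counts and bars 95% exact Poisson intervals, and titles give the genes of the bins and the span. Only the loop from Hoxc4 to the intergenic hub has separate intervals, 37 contacts for M0[CTR] against 67 for M2[IL-4]. How often loops over the genome have such a pair was not computed.

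The first comparison asked whether IL-4 and its washout changed which Hox loops were called. Within 25 kb at both anchors, M0[CTR] had a match for 86.2% of the Hox loops of M2[IL-4] (95% Wilson interval 77.8 to 91.7), against 86.4% of that whole list. For M2p[pIL-4] the share was 90.2% (83.7 to 94.3), against 85.9%. For IFNG it was 87.2% (80.2 to 92.0), against 87%, and for pIL-4 + IFNG 85.3% (78.1 to 90.4), against 84.9%. Every Hox share therefore held the share of its whole list within its interval. By cluster, Hoxc was matched in 92.3% to 100% of its loops, Hoxa in 87.7% to 91.6% and Hoxb in 65.2% to 80%. None of the 8 Hoxd loops was matched, M0[CTR] having no loop there. Among Hoxa, Hoxb and Hoxc, only the interval of Hoxb in pIL-4 + IFNG left out the share of its whole list. It was 65.2% of 23 loops (44.9 to 81.2), against 84.9%.

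The same calls gave the IL-4 classes, which compared 3 lists: untreated, IL-4 present and IL-4 washed out. Of 126 classed Hox loops, 91 were in all 3 (72.2%, against 68.8% of all loops). Transient loops, in M2[IL-4] alone, numbered 9 (7.14%, against 6.29%). Memory loops, present with IL-4 and after its washout but missing in untreated cells, numbered 4 (3.17%, against 5.5%), and Primed loops, in M2p[pIL-4] alone, 10 (7.94%, against 8.44%). Loops in M0[CTR] alone numbered 6 (4.76%, against 4.67%), those in M0[CTR] and M2p[pIL-4] 6 (4.76%, against 3.92%), and those in untreated and IL-4 lists alone 0 (against 2.41%). The shares of the Hox loops were thus near those of all loops. At the level of exact bins, 27 of 293 distinct Hox bin pairs were called in all 5 lists (9.22%, against 9.18% of all bin pairs), and 156 were called in 1 list.

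By cluster, Hoxa held 4 Transient, 3 Memory and 5 Primed loops, Hoxb 3, 0 and 4, Hoxc 1, 1 and 0, and Hoxd 1, 0 and 1. The strongest Transient loop of Hoxa joined the bin of Hoxa5 and Hoxa6 to an intergenic bin 90 kb away that holds the noncoding gene Halr1, and had 46 contacts in that list. The strongest Memory loops joined the bin at the start of Skap2 to Hoxa5 and Hoxa6 (30 contacts in M2[IL-4], called in those bins in that list only) and to Hoxa4 (29 contacts in M2[IL-4] and 28 in M2p[pIL-4]). Primed loops included Hoxa13 to Tax1bp1 (13 contacts) and to an intergenic bin before it (16 contacts). At Hoxb, a Primed loop joined the stretch upstream of Hoxb9 to Skap1 with 26 contacts after IL-4 washout and 24 in IFNG, and a Transient loop joined Hoxb5 and Hoxb6 to an intergenic bin 130 kb away with 35 contacts. At Hoxc, the Transient loop joined Hoxc8 to Gpr84 and Zfp385a with 18 contacts and the Memory loop joined Hoxc10 to an intergenic bin with 21. Except for the Primed loop of Hoxb and the Memory loop of Hoxa4, each of these bin pairs was called in 1 list.

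Loops per gene were next compared between lists, scaled by list length and with a pseudocount of 1 added. In IFNG against M0[CTR], 9 of the 39 genes were at least 2-fold higher and 0 were at least 2-fold lower, against 4.63% and 6.05% of all genes. All 9 were the Hoxd genes, which had 3 or 4 loops in IFNG and none in M0[CTR] and share the same loops, so they are 1 locus and not 9 results. Since M0[CTR] has no loop there, no fold is given, and with a pseudocount of 5 none of the 9 was past 2-fold.

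In the other comparisons, no Hox gene was 2-fold higher or lower. This changed with the settings: with a window of 25 kb, 4 genes were lower after washout than in untreated cells, 8 lower after washout than with IL-4, 3 lower with IFNG after priming than with IFNG alone and 5 higher with IFNG after priming than with priming alone. With lists of equal length, 9 were lower with IFNG after priming than with IFNG alone. In those lists, the whole Hoxd locus had 2 loops in IFNG and 0 in pIL-4 + IFNG. Shares of all genes were not computed under these alternative settings. Neighbouring Hox genes hold many of the same loops, so these counts of genes are not independent results. With the main settings, the corresponding shares of all genes were 4.22% higher and 6.02% lower in M2[IL-4] against M0[CTR], 4.76% and 3.56% in M2p[pIL-4] against M0[CTR], and 4.22% and 4.43% in M2p[pIL-4] against M2[IL-4]. They were 6.35% and 5.1% for IFNG given after priming against priming alone, and 3.81% and 4.13% in pIL-4 + IFNG against IFNG. In IFNG against M0[CTR], the median log2 ratio was 0.17 over Hoxa genes, 0.65 over Hoxb genes and -0.17 over Hoxc genes, with 0.00 over all genes. In M2[IL-4] against M0[CTR], it was -0.38, -0.49 and 0.05, and in M2p[pIL-4] against M0[CTR] -0.03, -0.11 and -0.39. These comparisons share the M0[CTR] list. In M2p[pIL-4] against M2[IL-4], the medians were 0.34, 0.38 and -0.38. For pIL-4 + IFNG they were -0.02, 0.57 and -0.18 against M2p[pIL-4], and -0.26, -0.20 and -0.34 against IFNG.

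Contacts were then compared at bin pairs called in both lists of a comparison and scaled by the total over all such bin pairs. Over 43 Hox bin pairs, the contacts in M2[IL-4] were 1.12 times those in M0[CTR] (95% interval 1.03 to 1.22), with Hoxa at 1.10 (0.957 to 1.26), Hoxb at 1.11 (0.889 to 1.37) and Hoxc at 1.14 (1.01 to 1.29). Over 59 bin pairs, those in IFNG were 1.10 times those in M0[CTR] (1.02 to 1.18), with Hoxa at 1.17 (1.06 to 1.30), Hoxb at 0.992 (0.802 to 1.23) and Hoxc at 1.04 (0.926 to 1.18). The ratio was 1.06 (0.983 to 1.15) in M2p[pIL-4] against M0[CTR] and 0.969 (0.895 to 1.05) in M2p[pIL-4] against M2[IL-4]. It was 1.01 (0.941 to 1.08) for IFNG after priming against priming alone and 0.960 (0.897 to 1.03) in pIL-4 + IFNG against IFNG. Over all Hox bin pairs, the intervals that left out 1 were thus those of M2[IL-4] and IFNG against M0[CTR], which share that list. They compare libraries and not conditions.

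Of single Hox bin pairs, 4 of 43 were at least 1.5-fold higher and 1 lower in M2[IL-4] against M0[CTR], where 2.19% and 1.41% of all shared bin pairs were. In IFNG against M0[CTR], 5 of 59 were higher and 1 lower (1.8% and 1.55%). In M2p[pIL-4], 1 of 56 was higher and 0 lower than in M0[CTR] (1.81% and 1.53%), and 2 of 47 were higher and 1 lower than in M2[IL-4] (1.65% and 1.74%). In pIL-4 + IFNG, 2 of 63 were higher and 3 lower than in M2p[pIL-4] (1.76% and 1.71%), and 0 of 60 were higher and 3 lower than in IFNG (1.82% and 1.68%). Hoxa bin pairs hold fewer contacts than most, and whether this bears on these counts was not tested. With at least 50 contacts in both lists together, 2 of 21 were higher and 1 lower in M2[IL-4] against M0[CTR], where 1.77% and 1.31% of all such bin pairs were. In IFNG against M0[CTR], 2 of 24 were higher and 1 lower (1.53% and 1.43%). In M2p[pIL-4], 0 of 20 were higher or lower than in M0[CTR] (1.58% and 1.27%), and 2 of 26 were higher and 0 lower than in M2[IL-4] (1.42% and 1.42%). For IFNG after priming, 1 of 33 was higher and 3 lower than with priming alone (1.46% and 1.53%), and 0 of 34 were higher and 2 lower than in IFNG (1.53% and 1.41%).

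**Figure D5:**
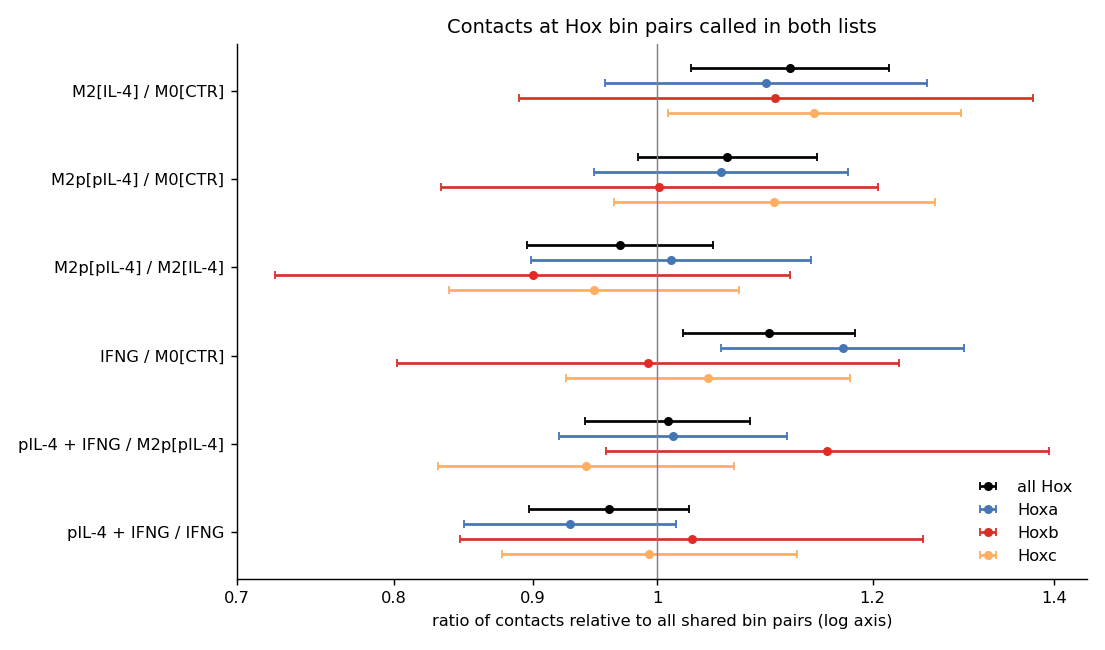
Ratio of contacts between the lists named on the vertical axis, at Hox bin pairs called in both, relative to all bin pairs called in both (horizontal log axis). Points are ratios over all Hox bin pairs and over Hoxa, Hoxb and Hoxc, bars are 95% counting intervals, and the line marks 1; IFNG over M0[CTR] stands at 1.17 at Hoxa, M2[IL-4] over M0[CTR] at 1.14 at Hoxc, and the Hoxb intervals all hold 1.

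Per anchor, contacts over bin pairs called in both lists were compared by a two-sided exact binomial test across the genome, among anchors with at least 50 contacts. No Hox anchor passed an adjusted p of 0.05 in any of the 6 comparisons, with 11 to 14 Hox anchors tested in each. Genome-wide, 0.0213% of anchors (4 of 18777) passed in IFNG against M0[CTR], and 0% in the other 5. The lowest unadjusted p at a Hox anchor was at the Hoxc4 bin, which held 122 contacts in M2[IL-4] and 77 in M0[CTR] over 2 bin pairs, a log2 ratio of 0.66 (exact binomial p 0.00171, adjusted p 1). The Hoxa13 TSS bin held 79 against 54 contacts in M2[IL-4] (log2 ratio 0.55, exact binomial p 0.0366, adjusted p 1) and 85 against 57 in IFNG (log2 ratio 0.53, exact binomial p 0.0365, adjusted p 1), each against M0[CTR]. The number of Hox anchors with an unadjusted p under 0.05 was 2 of 13 in M2[IL-4] against M0[CTR], where 2.18% of all anchors were under it, 2 of 11 in IFNG against M0[CTR] (2.15%), 1 of 12 for IFNG after priming against priming alone (2.04%) and 0 in the other 3 (1.62% to 1.72%).

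Genes that work with Hox proteins or regulate them were taken from fixed lists. The TALE homeodomain cofactors, which bind DNA beside Hox proteins, had a median of 4 to 6 loops over 9 genes, of which Meis1 had 6, 5, 6, 4 and 5 and Pbx2 had 61, 45, 59, 55 and 89. The 18 genes of a list of Hox regulators, made up of Polycomb, Trithorax and related chromatin genes and Ctcf, had a median of 28.5 to 39.5 loops, with 38, 46, 50, 29 and 41 at Ezh1 and 5, 5, 7, 2 and 5 at Ezh2, which encode histone methyltransferases of Polycomb complexes, and 32, 43, 52, 28 and 49 at Ctcf. The 15 other homeobox genes had a median of 6 to 16 loops. Of these, Evx1 lies beside Hoxa13 and had 64, 50, 80, 75 and 83 loops. Its window overlaps that of Hoxa13, which had 67, 56, 83, 80 and 84, and holds many of the same loops. Evx2 lies beside Hoxd13 and had 0, 1, 1, 4 and 2. In IFNG against M0[CTR], 4.63% of all genes were at least 2-fold higher and 6.05% lower. Of the TALE genes these were 0 and 0, and of the regulators 0 and 1 (Ezh2). Of the other homeobox genes they were 1 (Evx2) and 1 (En2). Ezh2 and En2 each had only 5 loops in M0[CTR] and 2 in IFNG. Evx2 had the same number of loops as Hoxd13 in each list and none in M0[CTR], so it repeats the Hoxd locus. In M2[IL-4] against M0[CTR], none of these genes was past 2-fold. In each remaining comparison, at most 1 gene of a fixed list was past 2-fold, always higher.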

How the data were processed

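Hi-C of 5 groups with 2 replicates each was analysed from 5 loop lists. The authors' methods and processing notes name nf-core/hic 2.0.0 with FastQC, HiC-Pro and bowtie2 on mm10, Juicer and HOMER, and describe HiCCUPS loops at 25 kb under a false discovery rate limit. The deposited lists hold pairs of 10 kb bins with whole-number counts of contacts and no false discovery rate, and whether that call made these 10 kb lists is not given in the sources used here. Replicates appeared merged. Other columns with per-sample values: 0. Contacts in a list (2174945 to 2787117) are the called part of a library, not its depth.

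The members, lists of genes and tests were chosen with earlier results of these data known. Loops were matched within 25 kb. Wilson, Poisson and binomial intervals are exact or score-based at 95%. Anchors were compared by an exact binomial test with Benjamini-Hochberg adjustment over all anchors, checked on simulated data. The simulation kept the called bin pairs fixed, so it did not cover the effect of calling loops. Named loops were, per cluster, the 3 with the highest mean strength among bin pairs called in all 5 lists, spanning at least 50 kb with an anchor in the body, and the 2 strongest with an anchor in the body of each IL-4 class. Other Hoxd loops, loops inside Hoxa and the most used bins were named after their values were seen. Each gene symbol was counted once, and some single genes are not reported here. Sequences and GATC counts are from GRCm38. Tools were scipy 1.17.1, pandas 2.3.3, numpy 2.4.6 and matplotlib 3.10.9 under Python 3.11.15. The alternatives tried were a 25 kb window, merged bin pairs, lists of equal length, a pseudocount of 5, matching within 50 kb or by identical bins, other null shares, minimums and scalings, a strength median per chromosome, and only bins with a Hox TSS.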

Additional observations from a re-analysis of the deposited data

How the results depend on the processing

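No paired analysis was possible because the values are 1 list for each group with nothing per replicate, and for the same reason no replicate could be left out. Lists are named by treatment: untreated, IL-4, washout, IFNG and primed IFNG. Of 199 recomputed values, 138 were unchanged by the criteria used and 61 moved. The criteria compared sizes only and had no way to label a value as reversed. Merging touching bin pairs lowered the loop totals to 33 (untreated), 34 (IL-4), 36 (washout), 37 (IFNG) and 43 (primed IFNG), as merging does by construction. A choice made after seeing the data, merging before the sides were counted, put the low-numbered side at 64.6% of Hoxa body loops over all lists, against 57.8% unmerged, and taking only bins with a Hox TSS put it at 68.0% in Hoxa and 100% in Hoxb, where the full bodies gave 92.1%. In the same bins, the share of Hox loops matched in untreated cells was 45.7% for IL-4, 45.5% for washout, 47.2% for IFNG and 41.1% for primed IFNG. Within 50 kb it was 92.6% for IL-4, 96.7% for washout and 93.0% for primed IFNG. The classes followed the matching closely. In the same bins there were 38 Transient, 13 Memory, 54 Primed, 38 stably repressed, 22 transiently repressed, 34 shared loops and 9 in the untreated and IL-4 lists only. Within 50 kb there were 5 Transient, 2 Memory, 3 Primed, 0 stably repressed and 2 transiently repressed loops, and 1 in the untreated and IL-4 lists only. A 25 kb window left 6 Primed and 2 transiently repressed loops. The 9 Hoxd genes that were 2-fold higher in IFNG than in untreated fell to 0 with a pseudocount of 5. With a 25 kb window, the genes at least 2-fold lower were 4 in washout against untreated, 8 in washout against IL-4 and 3 in primed IFNG against IFNG, and 5 were higher in primed IFNG against washout. With lists of equal length, Hoxb loops in primed IFNG fell from 23 to 13 and Hoxd loops were 0 outside IFNG, where 2 were left, and 9 genes were 2-fold lower in primed IFNG against IFNG. For these counts of genes, shares of all genes were not computed, and neighbouring Hox genes hold many of the same loops. A minimum of 50 contacts in both lists together left fewer bin pairs. Against untreated, those 1.5-fold higher were then 2 of 21 in IL-4, 2 of 24 in IFNG and 0 of 20 in washout. Without the minimum they were 4 of 43, 5 of 59 and 1 of 56. In primed IFNG against washout, 1 of 33 was higher, against 2 of 63 without it. In washout against IL-4, 0 of 26 were lower, against 1 of 47. The criteria compared these counts and not the shares, and shares over all bin pairs are given above. The cause of these moves was not tested. No alternative gave a Hox anchor an adjusted p under 0.05. Contacts limit every value: the median Hoxa loop of a list rests on 17 to 20 contacts.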
